A study of Mus musculus with 2 samples.

Results

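The genes described here are 38 genes of microglia and border macrophages, the tissue macrophages of the brain and of its coverings and vessels, measured in mouse midbrain at embryonic day 16.5. They were chosen by symbol and matched to the Ensembl gene identifier in the gene table of each library, and all 38 were found among the 43346 Ensembl genes measured. By class they were 8 microglial markers, 9 border macrophage markers, 19 genes that both kinds of macrophage and other myeloid cells share, and the 2 ligands of the receptor Csf1r. Total RNA from strain B6NCrl was sequenced in 2 libraries, which form 1 group with no other genotype, treatment or stage. Each library was a biological replicate from pooled embryos of mixed sex, with 37 embryos in the pool of replicate 2 and a number not given for replicate 1, and the same donor identifier stands on both. A single group allows no test of a condition, so differences between the pools are given as descriptions of these libraries only.

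Microglia arise from yolk sac progenitors that enter the brain early in embryonic life, and border macrophages of the meninges and perivascular spaces share that origin. Both depend on the receptor Csf1r, on its ligands Csf1 and Il34 and on the transcription factor PU.1, encoded by Spi1. In the developing brain they clear dying cells and debris, and their complement proteins and lysosomes are known from synapse removal.

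Expected counts, the estimated reads per gene, summed to 31830355 in replicate 1 and 36576263 in replicate 2. Levels are given in TPM, the deposited abundance of transcripts corrected for length, with a common total for every library. The ± sign joins the mean of both libraries and their SD (n = 2). A gene was called detected at 1 TPM or more in both libraries. By that rule 31 of the 38 members were detected (81.6%), against 62.1% of the 21474 protein-coding genes. The median member stood at 5.29 TPM in replicate 1 and 5.21 TPM in replicate 2, close to the protein-coding medians of 5.25 TPM and 5.21 TPM in the same libraries. Summed over all members the level was 276 TPM in replicate 1 and 319 TPM in replicate 2. In such bulk tissue, fewer cells of a type and less RNA per cell cannot be told apart.

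**Figure D1:**
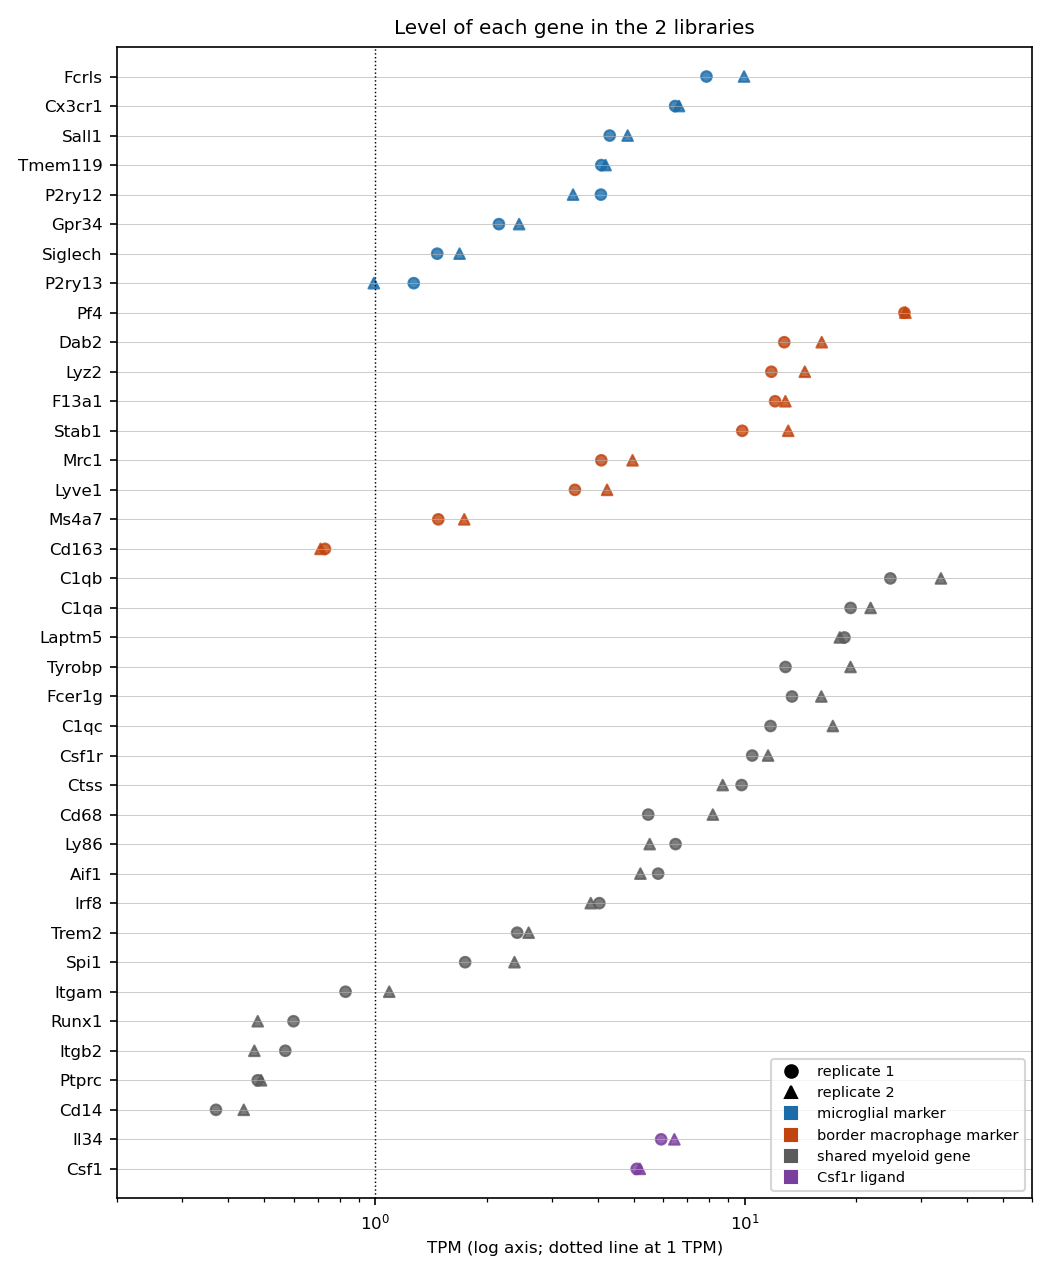
Level of each of the 38 genes in TPM on a log axis, with circles for replicate 1 and triangles for replicate 2, coloured by class and sorted by mean within a class. C1qb and Pf4 lie highest, and Cd163, Runx1, Itgb2, Ptprc and Cd14 lie left of the dotted line at 1 TPM in both libraries.

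The receptor and its ligands were all present. Csf1r, the receptor tyrosine kinase that microglia need to survive, had 10.5 TPM in replicate 1 and 11.6 TPM in replicate 2. Csf1, the ligand made by many cell types, had 5.10 TPM in replicate 1 and 5.20 TPM in replicate 2. Il34, the ligand that neurons of the adult forebrain are known to make, had 5.94 TPM in replicate 1 and 6.45 TPM in replicate 2. The ligands were thus close to each other in level, with Il34 over Csf1 at a log2 ratio of 0.27 ± 0.06, and the receptor was 2.14-fold above Csf1 and 1.78-fold above Il34. Of the exonic bases of Csf1r, 15.1% overlap Hmgxb3 on the opposite strand, which stood at 11.4 TPM in replicate 1 and 11.2 TPM in replicate 2. The labels do not state whether the libraries keep strand, so reads on those bases cannot be told apart.

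Of the microglial markers 7 of 8 were detected, and none reached 10 TPM. Fcrls, an Fc receptor-like protein found in mouse microglia, was the highest at 7.88 TPM in replicate 1 and 9.96 TPM in replicate 2. Cx3cr1, the receptor for fractalkine, followed at 6.48 TPM in replicate 1 and 6.64 TPM in replicate 2. Sall1, a zinc finger factor that microglia need for their identity and that neural progenitors also use, had 4.31 TPM in replicate 1 and 4.82 TPM in replicate 2. These leading genes kept the same order in both libraries. Tmem119, a membrane protein used to tell microglia from other macrophages, had 4.09 TPM in replicate 1 and 4.20 TPM in replicate 2. P2ry12, the ADP receptor that guides microglial processes, had 4.08 TPM in replicate 1 and 3.43 TPM in replicate 2. P2ry13, a second ADP receptor, had 1.27 TPM in replicate 1 and 0.99 TPM in replicate 2, on either side of the detection limit. P2ry12 stood 3.34-fold above P2ry13 (log2 1.74 ± 0.08), its neighbour at a gap of 5389 bases on chromosome 3. Both genes lie inside Med12l, which is on the opposite strand and had 4.08 TPM in replicate 1 and 3.59 TPM in replicate 2; P2ry12 shares 0.35% of its exonic bases with it and P2ry13 shares none. The remaining markers were Gpr34 and Siglech. Gpr34, a receptor for lysophosphatidylserine, was at 2.30 ± 0.21 TPM. Siglech, a member of the Siglec family also made by plasmacytoid dendritic cells, was at 1.58 ± 0.16 TPM. Gpr34 lies inside Cask on the opposite strand and shares no exonic bases with it. Cask had 59.1 TPM in replicate 1 and 62.0 TPM in replicate 2.

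Of the border macrophage markers 8 of 9 were detected, and 4 reached 10 TPM in both libraries. Pf4, a chemokine of embryonic and border macrophages and also of platelets, had 27.1 TPM in replicate 1 and 27.2 TPM in replicate 2. Dab2, an adaptor of endocytosis, had 12.8 TPM in replicate 1 and 16.2 TPM in replicate 2. Lyz2, lysozyme of myeloid cells, had 11.8 TPM in replicate 1 and 14.6 TPM in replicate 2, and its near-identical copy Lyz1 could take part of its reads. F13a1, the catalytic subunit of coagulation factor XIII, had 12.1 TPM in replicate 1 and 12.9 TPM in replicate 2. Within each library these genes and Stab1, a scavenger receptor with 9.85 TPM in replicate 1 and 13.1 TPM in replicate 2, stood above every microglial marker. Stab1 shares 1.09% of its exonic bases with Nt5dc2 on the opposite strand, which had 164 TPM in replicate 1 and 136 TPM in replicate 2. The remaining border markers lay within the range of the microglial ones or below it. Mrc1, the mannose receptor, had 4.09 TPM in replicate 1 and 4.97 TPM in replicate 2. Lyve1, a receptor for hyaluronan, had 3.47 TPM in replicate 1 and 4.24 TPM in replicate 2. Ms4a7, a membrane protein of macrophages, had 1.48 TPM in replicate 1 and 1.74 TPM in replicate 2. Cd163, the scavenger receptor for haemoglobin bound to haptoglobin, was below 1 TPM in both, with 0.73 TPM in replicate 1 and 0.71 TPM in replicate 2.

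Set against each other as classes, the microglial markers had the lower median. It was 4.09 TPM for microglial and 9.85 TPM for border markers in replicate 1, and 3.82 TPM for microglial and 12.9 TPM for border markers in replicate 2. The log2 ratio of microglial over border medians was −1.51 ± 0.34, a border median 2.85-fold higher, and it was below 0 in both libraries. In replicate 1 the border median was the level of Stab1 itself, most of it assigned to transcripts annotated as non-coding. The coding transcript Stab1-201 had 2.36 TPM in replicate 1 and 2.05 TPM in replicate 2. With those values for Stab1, Mrc1 would be the border median, at 4.09 TPM in replicate 1 and 4.97 TPM in replicate 2. Several border markers are also made by other cells of the tissue: Stab1, Lyve1 and Dab2 by endothelial or mesenchymal cells and Pf4 by the platelet lineage. Without these 4 genes the medians were 4.09 TPM for microglial and 4.09 TPM for border markers in replicate 1, and 3.82 TPM for microglial and 4.97 TPM for border markers in replicate 2, a log2 ratio of −0.19 ± 0.27. The sums over the full classes had a log2 ratio of −1.44 ± 0.06, and without the 4 genes 0.02 ± 0.07, an alternative chosen after seeing the data. Without them neither the median nor the sum separated the classes by more than the spread between libraries. Other sources of genes that were kept, such as F13a1, P2ry12 and Tmem119, were not examined. The trimmed ratio is therefore not corrected for every source. Leaving out Sall1 and Siglech left the median ratio at −1.51. It could not have moved, since Sall1 lies above and Siglech below the middle pair of microglial markers in both libraries.

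**Figure D2:**
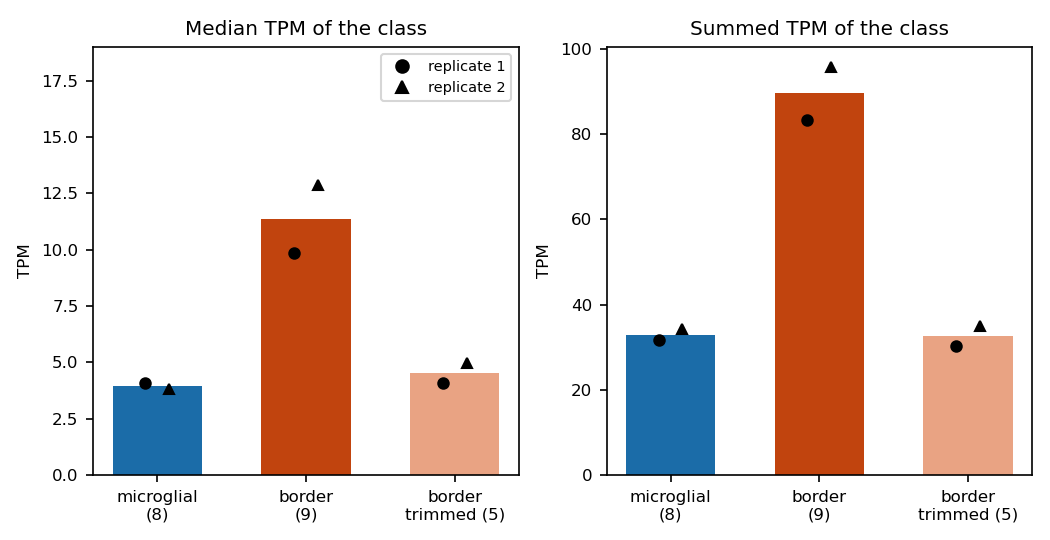
Median (left) and summed (right) TPM of the 8 microglial markers, the 9 border macrophage markers and the 5 border markers left without Stab1, Lyve1, Dab2 and Pf4; bars are the mean of the libraries, circles replicate 1 and triangles replicate 2. The full border class lies above the microglial class in both libraries, and the trimmed one lies close to it.

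Single pairs of markers showed how much the choice of gene set the order. Relative to Mrc1, Fcrls was 1.97-fold and Cx3cr1 1.46-fold higher, while P2ry12 was at 0.83 and Tmem119 at 0.919 of its level. Cx3cr1 was at 0.525 of F13a1, and Tmem119 was 5.76-fold above Cd163. The spread over the libraries exceeded the size of the ratio for P2ry12 and for Tmem119 over Mrc1, with log2 ratios of −0.27 ± 0.38 and −0.12 ± 0.17.

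Markers of the other cells were present to different degrees. All 8 endothelial markers were detected, with a summed level of 197 TPM in replicate 1 and 183 TPM in replicate 2. Of 9 megakaryocyte and platelet markers, Gp1bb and Itga2b were detected, the sum was 18.0 TPM in replicate 1 and 21.8 TPM in replicate 2, and none was at 0 counts in both libraries. Ppbp, another chemokine of platelets, had 0.66 TPM in replicate 1 and 0.85 TPM in replicate 2, and Pf4 stood 36.3-fold above it. Of 4 lymphatic markers, Prox1, Flt4 and Pdpn were detected. Prox1 had 28.0 TPM in replicate 1 and 13.1 TPM in replicate 2, and Flt4 had 1.33 TPM and 1.37 TPM. Whether lymphatic cells gave these levels was not tested. Of 8 pericyte and meningeal markers 7 were detected, with a sum of 251 TPM in replicate 1 and 252 TPM in replicate 2. The part of these cells in the levels of Stab1, Lyve1, Dab2 and Pf4 was not tested.

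The lineage transcription factors all stood below 5 TPM. Irf8, a factor of myeloid development, had 4.04 TPM in replicate 1 and 3.83 TPM in replicate 2. Spi1, which encodes PU.1, had 1.75 TPM in replicate 1 and 2.38 TPM in replicate 2. Runx1, needed for blood cell and microglial progenitors, was below 1 TPM in both, with 0.60 TPM in replicate 1 and 0.48 TPM in replicate 2. Irf8 lies within Gm20388, annotated on the same strand with 6.98 TPM in replicate 1 and 7.69 TPM in replicate 2, although they share no exonic bases.

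Among the shared class C1qb and C1qa had the highest mean levels, and C1qc stood below Laptm5, Tyrobp and Fcer1g. C1qb had 24.8 TPM in replicate 1 and 34.0 TPM in replicate 2. C1qa had 19.4 TPM in replicate 1 and 21.9 TPM in replicate 2. C1qc had 11.8 TPM in replicate 1 and 17.3 TPM in replicate 2. These are the chains of C1q, which starts the classical complement cascade, and they kept the order C1qb, C1qa, C1qc in both libraries. Their genes lie in a row on one strand of chromosome 4 in mm10: C1qa at chr4:136895917-136898803, C1qc at chr4:136889804-136893065 and C1qb at chr4:136880129-136886187, with gaps of 2851 and 3616 bases. C1qb stood 2.04-fold above C1qc (log2 1.03 ± 0.08) and 1.41-fold above C1qa (log2 0.50 ± 0.19). C1qa over C1qc differed more between the libraries, at 1.65-fold in replicate 1 and 1.27-fold in replicate 2. Of 13 further complement genes 6 were detected, among them the inhibitors Serping1 and Cd55, whereas the proteases C1ra and C1s1, which act with C1q, were below 1 TPM in both libraries.

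The promoters of the members were searched for letters that PU.1 and other factors are known to bind. Promoter windows of 300 bases, 250 before to 50 after the transcription start, came from RefSeq on GRCm38.p6. The search covered 28 of the 38 members with 36 windows. Csf1r and Cd14 were left out of it by choice and not for lack of a match, so their promoters are not described. The shares given for all windows and all genes were taken without this exclusion. The motif GAGGAAGT, on either strand, was present for 4 of these 28 members, C1qc, Ctss, F13a1 and Pf4, and in 3.20% of all 32851 windows of the table. Its shorter core GAGGAA, which lies inside the longer motif, was present for 19 of 28 members and in 28.3% of windows. For genes, some of which have several windows, the shares were 3.69% and 31.25%. The RUNX motif TGTGGT was present for 8 of 28 members against 18.9% of genes, and the TATA box TATAAA for 5 of 28 against 15.7% of genes. A match is a run of letters and says nothing about binding in this tissue. The windows below are those of the 4 members with the longer motif and of C1qb, the member with the highest mean level, read 5′ to 3′ on the strand of the gene, with capitals marking the core GAGGAA or its complement TTCCTC:
C1qb: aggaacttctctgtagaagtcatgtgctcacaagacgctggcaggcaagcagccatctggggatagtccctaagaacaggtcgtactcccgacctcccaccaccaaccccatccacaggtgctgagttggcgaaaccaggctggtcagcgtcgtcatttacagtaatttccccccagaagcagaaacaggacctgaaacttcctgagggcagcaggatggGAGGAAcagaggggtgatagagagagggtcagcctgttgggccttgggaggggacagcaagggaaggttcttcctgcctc
C1qc: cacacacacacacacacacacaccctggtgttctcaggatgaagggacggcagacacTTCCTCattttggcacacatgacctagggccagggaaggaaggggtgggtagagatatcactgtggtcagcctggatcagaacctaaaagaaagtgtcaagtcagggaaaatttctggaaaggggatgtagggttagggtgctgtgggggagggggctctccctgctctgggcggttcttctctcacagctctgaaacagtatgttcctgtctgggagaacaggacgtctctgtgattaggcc
Ctss: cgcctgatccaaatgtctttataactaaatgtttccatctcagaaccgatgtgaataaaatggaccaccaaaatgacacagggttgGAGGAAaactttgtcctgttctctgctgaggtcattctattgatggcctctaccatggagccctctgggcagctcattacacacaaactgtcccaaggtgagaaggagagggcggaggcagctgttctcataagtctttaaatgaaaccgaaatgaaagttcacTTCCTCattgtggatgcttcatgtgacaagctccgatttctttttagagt
F13a1: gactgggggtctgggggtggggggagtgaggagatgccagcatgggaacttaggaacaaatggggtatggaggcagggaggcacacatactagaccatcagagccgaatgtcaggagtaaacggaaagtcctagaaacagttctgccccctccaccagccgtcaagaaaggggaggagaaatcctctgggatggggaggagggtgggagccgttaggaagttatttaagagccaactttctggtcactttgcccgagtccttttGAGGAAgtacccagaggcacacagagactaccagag
Pf4: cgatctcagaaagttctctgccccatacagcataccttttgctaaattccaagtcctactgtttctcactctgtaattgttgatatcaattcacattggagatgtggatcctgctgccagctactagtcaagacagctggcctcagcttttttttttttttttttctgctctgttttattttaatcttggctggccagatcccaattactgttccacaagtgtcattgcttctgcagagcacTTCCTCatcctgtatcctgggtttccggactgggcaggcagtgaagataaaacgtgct

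In GRCm38.p6 these windows are chr4:136886151-136886450 for C1qb, chr4:136892865-136893164 for C1qc and chr13:37049164-37049463 for F13a1, all on the minus strand, and chr3:95526536-95526835 for Ctss and chr5:90772185-90772484 for Pf4, both on the plus strand. The longer motif begins at base 56 of the C1qc window, 249 of Ctss, 265 of F13a1 and 241 of Pf4, where the transcript starts after base 250. F13a1 has a second window, which holds the core and not the longer motif.

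Among the receptors and their signalling adaptors, the adaptors were far above the receptor. Tyrobp, the adaptor known as DAP12 that passes signals through an ITAM motif, had 12.9 TPM in replicate 1 and 19.4 TPM in replicate 2. Fcer1g, the common gamma chain of Fc receptors, had 13.4 TPM in replicate 1 and 16.1 TPM in replicate 2. Trem2, a lipid receptor that signals through Tyrobp, had 2.42 TPM in replicate 1 and 2.60 TPM in replicate 2. Tyrobp was 6.30-fold above Trem2 (log2 2.66 ± 0.34), while Fcer1g and Tyrobp did not differ beyond their spread (log2 −0.10 ± 0.23). Of 10 genes of the ITAM pathway 5 were detected, led by the widely expressed adaptor Grb2, the kinase Lyn and the phosphatase Inpp5d.

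The surface proteins by which myeloid cells are often sorted were among the lowest members. Ptprc, the phosphatase CD45, had 0.48 TPM in replicate 1 and 0.49 TPM in replicate 2. The deposited posterior means of Ptprc were 1.17 TPM in replicate 1 and 1.07 TPM in replicate 2, and it was the only member whose TPM lay below its deposited credibility interval, which it did in both libraries. Itgam, or CD11b, had 0.83 TPM in replicate 1 and 1.09 TPM in replicate 2. Its partner in complement receptor 3, Itgb2 or CD18, was at 0.52 ± 0.07 TPM, and Cd14, a co-receptor for lipopolysaccharide, was at 0.40 ± 0.05 TPM. Cd14 rested on 10 expected counts in replicate 1 and 14 in replicate 2, so its level is imprecise. Itgam shares 68.7% of its exonic bases with Gm49368 on the same strand, a gene not analysed here.

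The lysosomal and intracellular members spanned a wide range. Laptm5, a lysosomal membrane protein of blood cells, had 18.6 TPM in replicate 1 and 18.1 TPM in replicate 2. Ctss, the lysosomal protease cathepsin S, had 9.81 TPM in replicate 1 and 8.72 TPM in replicate 2. Cd68, a lysosomal glycoprotein of phagocytes, had 5.48 TPM in replicate 1 and 8.20 TPM in replicate 2. Laptm5 was the highest of these and the most even between the libraries, and Cd68 the least even. Ly86, the partner of the receptor CD180, was at 6.02 ± 0.69 TPM, and Aif1, the actin-bundling protein Iba1, at 5.53 ± 0.43 TPM.

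At the transcript level 15 members were described, those with several annotated transcripts and at least 5 TPM, and Runx1. In 10 of the 15 the same transcript led in both libraries. Csf1r-202 took 82.4% of the Csf1r level in replicate 1 and 52.9% in replicate 2, and Csf1r-201 took the rest. Cx3cr1-202 took 75.7% in replicate 1 and 76.7% in replicate 2, close to each other in the libraries. The ligands differed: the coding Csf1-201 and Csf1-202 made up 52.2% and 38.7% in replicate 1, and 56.1% and 36.0% in replicate 2. For Il34 the coding Il34-201 took 49.9% in replicate 1 and 46.8% in replicate 2, and transcripts annotated as non-coding took 50.1% in replicate 1 and 41.95% in replicate 2. For Aif1 a transcript with a retained intron, Aif1-205, took 53.7% in replicate 1 and 54.4% in replicate 2, ahead of the coding Aif1-203. For Stab1, 76.1% of the TPM in replicate 1 and 84.4% in replicate 2 was assigned to transcripts annotated as non-coding, which are far shorter than the coding Stab1-201. By expected counts, which are not per length, Stab1-201 held 344 of 557 in replicate 1 and 349 of 560 in replicate 2. The processed transcript Stab1-202, of 242 bases, took 5.22% of the TPM in replicate 1 on 1.36 expected counts and 39.2% in replicate 2 on 15.8 expected counts. The effective length of Stab1 was 3060 bases in replicate 1 and 1981 bases in replicate 2, so that its TPM was lower in replicate 1 while its scaled count was higher there.

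The pools were then compared gene by gene with expected counts. The log2 ratio of replicate 1 over replicate 2 used counts with 0.5 added, scaled for depth by the trimmed mean of M-values, and covered the 34 members whose expected counts averaged 50 or more. Intervals are exact at 95% and cover counting error only, and a difference of 1.5-fold or more was counted. The median over the 34 members was −0.13, with 26 lower and 8 higher in replicate 1. That is 76.5% lower, against 53.2% of the 7143 genes in the same range of mean counts, which ends at 957. By class the median was −0.14 for microglial markers, −0.23 for border markers, −0.13 for shared genes and −0.17 for the ligands.

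Past 1.5-fold, 2 of 34 members were lower in replicate 1 and none was higher. The background was 3.86% lower and 2.42% higher among genes in the same range of counts, and 2.12% lower and 1.33% higher among all 14412 genes compared, so the count of members was near it. The 2 genes were Tyrobp and C1qc. Tyrobp had 111 expected counts in replicate 1 and 194 in replicate 2, a log2 ratio of −0.62 (interval −0.97 to −0.28). C1qc had 240 expected counts in replicate 1 and 411 in replicate 2, a log2 ratio of −0.59 (interval −0.83 to −0.36). The 2 lie just past the limit, and Cd68 at −0.51 (interval −0.88 to −0.15) and C1qb at −0.49 (interval −0.66 to −0.32) lie just inside it.

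The interval lay wholly below 0 for 11 of the 34 members, against 18.2% of genes in the range, and wholly above 0 for 1, against 13.6%. The 11 were Sall1 and Fcrls of the microglial class, Mrc1, Lyz2, Lyve1 and Dab2 of the border class, and C1qa, C1qb, C1qc, Tyrobp and Cd68 of the shared class. The 1 above 0 was Stab1, at 0.18 (interval 0.0033 to 0.35). Dab2 had 611 expected counts in replicate 1 and 915 in replicate 2, a log2 ratio of −0.40, the lowest of the border class. Fcrls had 317 expected counts in replicate 1 and 467 in replicate 2, a log2 ratio of −0.38, the lowest of the microglial class. Csf1r, Cx3cr1, Pf4 and F13a1 had ratios between −0.13 and −0.05, each with an interval that includes 0.

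**Figure D3:**
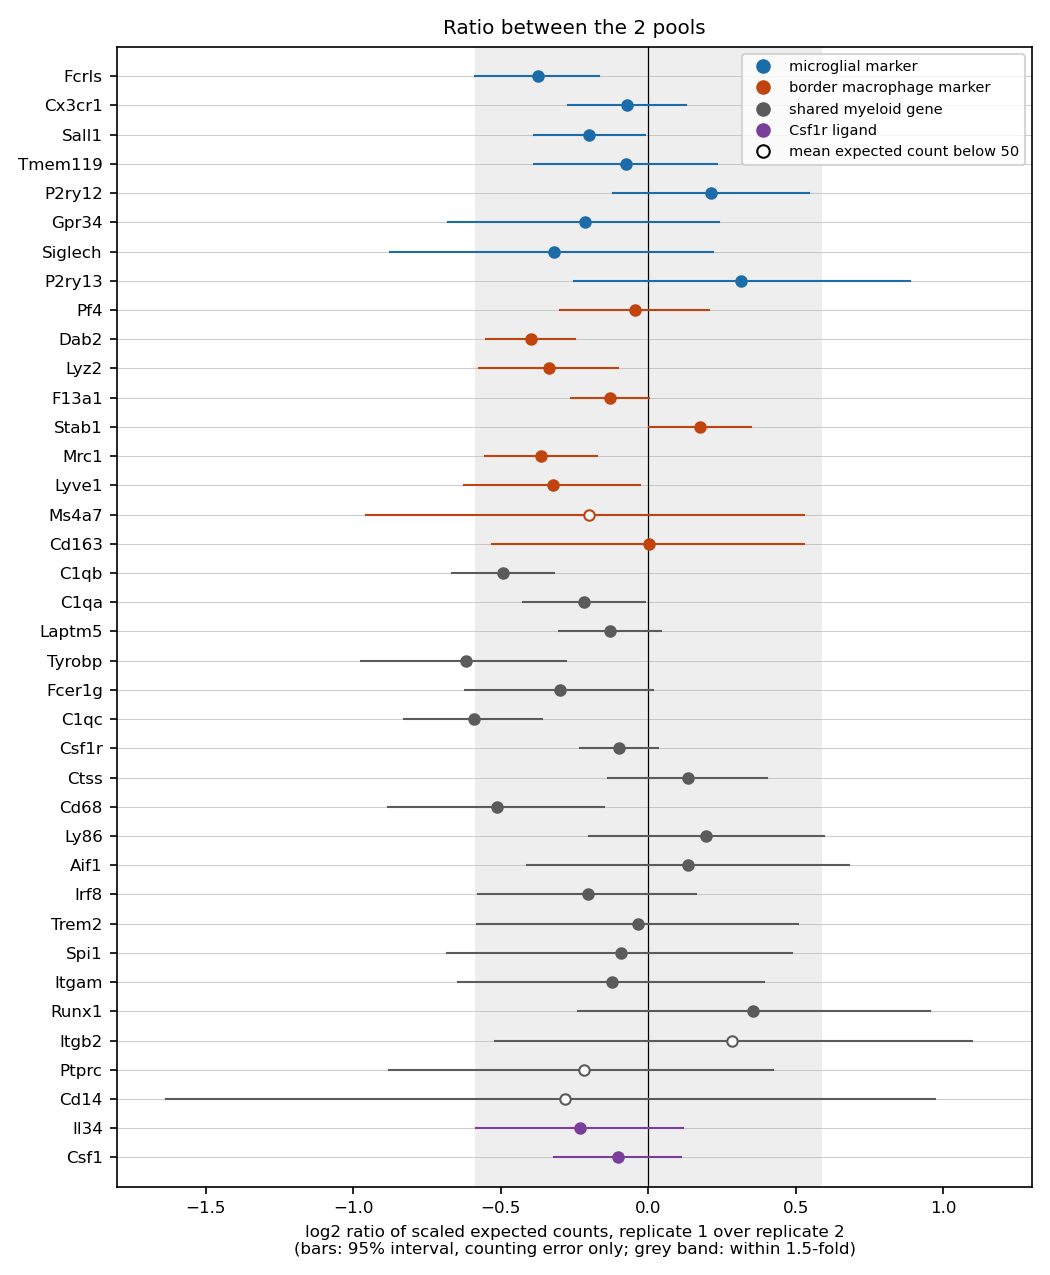
Log2 ratio of scaled expected counts, replicate 1 over replicate 2, for each of the 38 genes, with bars for the 95% counting interval and open circles where the mean expected count is below 50. Tyrobp and C1qc lie just left of the grey band of 1.5-fold, and 11 filled points have bars wholly left of 0.

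The direction depended on how the libraries were scaled: by the counts of the ERCC spike-in RNAs, 475145 in replicate 1 and 816733 in replicate 2, the median over members was 0.47 and not −0.13, while the median over all genes moved to 0.59 from −0.01. Under spike-in scaling 8 of the 34 members were past 1.5-fold, all higher in replicate 1, against 49.2% of genes in the same range of counts higher and 0.406% lower. Tyrobp and C1qc were not among them, with log2 ratios of −0.02 and 0.01.

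Genes outside the members that moved between the pools are given beside these ratios. Of 13 genes of activated and white matter microglia, 8 had enough counts to compare, and all 8 were lower in replicate 1, with Spp1, Apoe and Lgals3 past 1.5-fold. Spp1, the secreted protein osteopontin of bone cells and activated macrophages, had 10.2 TPM in replicate 1 and 41.6 TPM in replicate 2. Apoe, the lipid carrier of glia and macrophages, had 296 TPM in replicate 1 and 566 TPM in replicate 2. Of 7 osteoclast markers, which mark the macrophage-like cells of bone, 3 were detected, with a summed level of 37.2 TPM in replicate 1 and 42.7 TPM in replicate 2. Mmp9 and Calcr, the markers of that list with most counts, had log2 ratios of 0.05 and 0.10, whereas Ctsk, a collagen-cutting protease of osteoclasts, had 4.88 TPM in replicate 1 and 9.19 TPM in replicate 2. The median log2 ratio of Mmp9, Calcr and Ctsk was 0.05, with Ctsk alone below 0, at −0.95. Acp5, Dcstamp, Atp6v0d2 and Ocstamp of that list, named after their values were seen, had too few counts for this comparison. Acp5, a phosphatase of osteoclasts, had 7 expected counts in replicate 1 and 92 in replicate 2. Dcstamp and Atp6v0d2 each had 2 in replicate 1 and 8 in replicate 2, and Ocstamp had 1 and 5. The intervals of Dcstamp, Atp6v0d2 and Ocstamp include 0. The endothelial markers ran the other way, with 7 of 8 higher in replicate 1 and a median log2 ratio of 0.13. The part of bone or of other cells in the ratios of Tyrobp, Cd68 and the C1q genes was not tested.

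Further lists placed the members among other blood and immune cells. Of 20 further microglial and myeloid genes 15 were detected, among them Adgrg1 and Rgs10, which neural or other cells also express, and Cd53 was past 1.5-fold lower in replicate 1. Of 11 genes of the TGF-beta axis, a signal that microglia need to mature, 10 were detected, whereas the ligand Tgfb1 itself had 0.57 TPM in replicate 1 and 0.12 TPM in replicate 2. Of 14 further border macrophage genes 4 were detected, among them Colec12 and Maf, and Cd36 was past 1.5-fold higher in replicate 1. The median of the further border list was 0.93 ± 0.13 TPM, against 3.21 ± 0.60 TPM for the further microglial and myeloid list. This order is the reverse of that between the full member classes.

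Red cell genes were abundant, with 5 of 5 detected and a summed level of 11039 TPM in replicate 1 and 9767 TPM in replicate 2. Most markers of other white blood cells were below 1 TPM. Of 5 genes of MHC class II, which present antigen, H2-Eb1 alone was detected. Of 7 monocyte and progenitor genes, Kit and Myb were detected, and Ccr2, the defining receptor of monocytes, had 10 expected counts in replicate 1 and 0 in replicate 2. Of 8 granulocyte genes, Prtn3, S100a8 and S100a9 were detected. None of 6 mast cell and none of 7 lymphocyte genes was detected, with summed levels of at most 0.67 TPM in either library.

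**Figure D4:**
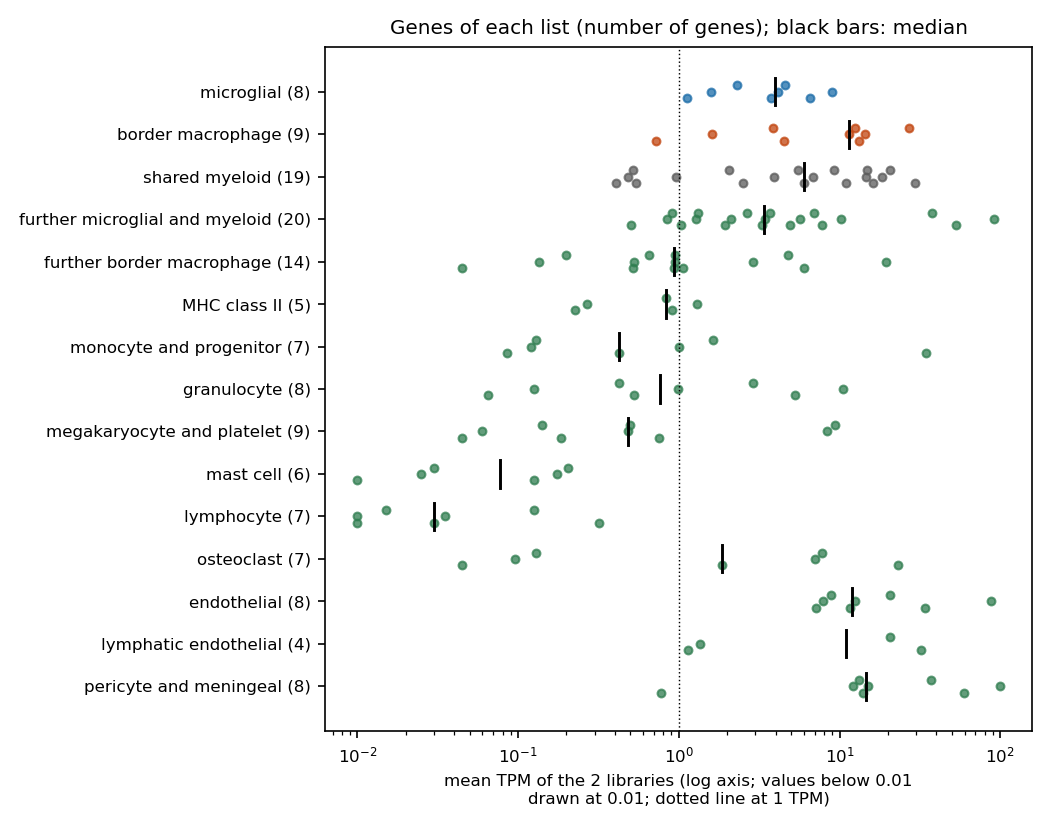
Mean TPM of every gene in the member classes (top rows) and in the other lists, on a log axis with a black bar at each median and the number of genes in brackets. The 3 member classes have medians above 1 TPM, and the mast cell and lymphocyte genes lie below 1 TPM.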

How the data were processed

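Per the labels' protocols, each library was made from 10 ng of RNA above 200 nucleotides, with ERCC spike-ins added. Per the deposited readme, reads were aligned to mm10 and quantified against GENCODE M4; the sources used here do not give the aligner or quantifier. Per the file headers, the deposited expected counts are estimated reads per gene without normalization, and reads that fit several genes are divided among them. Per the file headers, the deposited TPM and FPKM values are scaled by effective length and by library. The deposited transcript shares are a percent of the TPM of the gene, and the bounds of the deposited credibility intervals, whose level is not stated, were treated as a score.

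Symbols and coordinates came from GENCODE M21 on the same assembly; 884 identifiers without a match held 0.197% and 0.183% of counts. Expected counts were whole to within 0.005 in both libraries for 35 of 38 members. Scaling used TMM from edgeR 4.0.16 on rounded expected counts, with size factors of DESeq2 1.42.0 and spike-in counts as alternatives, in R 4.3.3 and Python 3.11.15. The ratio was tested on simulated data. Intervals cover counting error only, since reads are not independent molecules. Described genes are all 38 members and, of each other list, the 3 of highest level and those past 1.5-fold; transcripts are described where both releases give the same length. C1ra, C1s1, Tgfb1, Ppbp, Ccr2, Axl, Acp5, Dcstamp, Atp6v0d2 and Ocstamp were named after their values were seen. Some genes that the rule for described genes takes are not reported here. Members and lists were chosen with earlier results of these data known.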

Additional observations from a re-analysis of the deposited data

How the results depend on the processing

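No paired analysis was possible because the libraries form 1 group. Of the 60 values recomputed, 45 held, 10 moved by more than the spread or, for counts, by over 1.5 times, and 5 changed sign. Some of the 45 could not have moved. Leaving out a library shifts a class median or the ratio of medians by less than the SD. Leaving out Sall1 and Siglech cannot change the microglial median. Looser count filters cannot change the microglial ratio between pools, since all 8 markers were already compared. In FPKM the class medians were 2.31 for microglial and 6.66 for border markers. Without Stab1, Lyve1, Dab2 and Pf4 the border median was 4.53 TPM and the log2 ratio of microglial over border medians −0.19, and the ratio of sums was 0.0217, a reversal found with an alternative chosen after seeing the data. Expected counts, not per length, gave −0.88. Spike-in scaling moved the median ratio of replicate 1 over replicate 2 to 0.47 over all members, 0.46 for microglial, 0.37 for border and 0.47 for shared genes. The sign changed in each, with 8 members past 1.5-fold, all higher in replicate 1. By construction this scaling shifts every gene alike. Why the spike-in counts differed between the libraries was not tested. With TPM plus 0.1 the medians were −0.18 over all members and −0.30 for border markers. Adding 5 counts left 1 member past 1.5-fold, and at 2-fold there were 0. The causes of these changes were not tested. Members with few counts, such as Cd14, Itgb2, Ms4a7 and Ptprc, are limited by depth.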
